A study of Homo sapiens with 6 samples.

Results

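The genes described here are the sensors of endoplasmic reticulum (ER) stress and the kinases of the translation factor eIF2alpha. They were chosen by name, whatever their values, as 10 rows of a table of 28847 genes: ERN1, XBP1, ATF6, ATF6B, MBTPS1, MBTPS2, EIF2AK1, EIF2AK2, EIF2AK3 and EIF2AK4. RNA sequencing compared 3 libraries of THP-1 cells treated with recombinant human RBP4 protein, the plasma carrier of retinol, with 3 libraries of THP-1 cells without it, the control. THP-1 is a human monocytic leukaemia line, presented by the series as a model of unpolarized (M0) macrophages. The labels give no dose, time, vehicle or culture details, and do not say whether libraries of a group came from separate cultures, so p-values measure only the spread between these libraries.

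Unfolded proteins in the ER are detected by transmembrane proteins with a sensing domain in the ER lumen. IRE1, encoded by ERN1, is a kinase and ribonuclease that removes a short stretch from the XBP1 messenger RNA, and the rejoined message encodes the active transcription factor XBP1s. ATF6 and its relative ATF6B travel to the Golgi, where the proteases S1P (MBTPS1) and S2P (MBTPS2) cut free a transcription factor. PERK (EIF2AK3) phosphorylates eIF2alpha, which lowers general translation and favours translation of ATF4. The other kinases of the same factor respond to different signals: HRI (EIF2AK1) to heme shortage and mitochondrial stress, PKR (EIF2AK2) to double-stranded RNA, and GCN2 (EIF2AK4) to uncharged transfer RNA. Apart from the splicing of XBP1, the sensors and kinases are regulated largely after translation, and the level of their messenger RNA does not report their activity.

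The stretch that IRE1 removes is shown because the deposited values count reads per gene and hold XBP1 messages with and without it together. GENCODE release 29 annotates XBP1-207 without 26 bases of exon 4 of 5 of XBP1-201, on chromosome 22 of GRCh38, minus strand, from 28796124 to 28796149. In the line below the 26 bases are in capitals, with 30 bases on either side.

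XBP1-201: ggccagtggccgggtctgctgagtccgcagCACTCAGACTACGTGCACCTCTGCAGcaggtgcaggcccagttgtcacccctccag

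Because the ends of the stretch repeat each other, 7 placements of the 26 bases give the same joined message, so its exact ends cannot be read from the sequence. Its length is not a multiple of 3, and its removal shifts the reading frame. The share of spliced XBP1 message was not analysed here.

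Transcripts of the sensors were mostly higher in the RBP4 libraries, by small factors. XBP1 rose 1.58-fold, ERN1 1.33-fold, EIF2AK3 (PERK) 1.28-fold, ATF6B 1.24-fold, EIF2AK2 (PKR) 1.14-fold and ATF6 1.08-fold. EIF2AK4 (GCN2) fell 1.11-fold, and MBTPS1, MBTPS2 and EIF2AK1 (HRI) did not pass the test. All 10 genes passed the filter on low values, so 6 were raised, 1 was lowered and 3 were not past the threshold, an adjusted p of 0.05 by limma (Benjamini-Hochberg over all genes tested). Over the 15676 genes tested, 50.6% were called, 24.5% raised and 26.1% lowered, so a call alone sets none of these genes apart. The median log2 fold change of the 10 genes was 0.15, against -0.0021 over all genes tested. In the authors' deposited table the same 7 genes were past an adjusted p of 0.05, with the same 6 raised and 1 lowered, and 20.6% of all its genes were. That share is over all 28847 genes listed, so it cannot be set against the 50.6% of genes tested. A DESeq2 fit repeated here called 5931 of 18779 genes tested. Values are normalized reads, which are gene read counts divided by the authors' size factor of each library, and fold changes in the text are ratios of group means. In bulk RNA, fewer cells with a transcript and less of it per cell cannot be told apart.

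**Figure D1:**
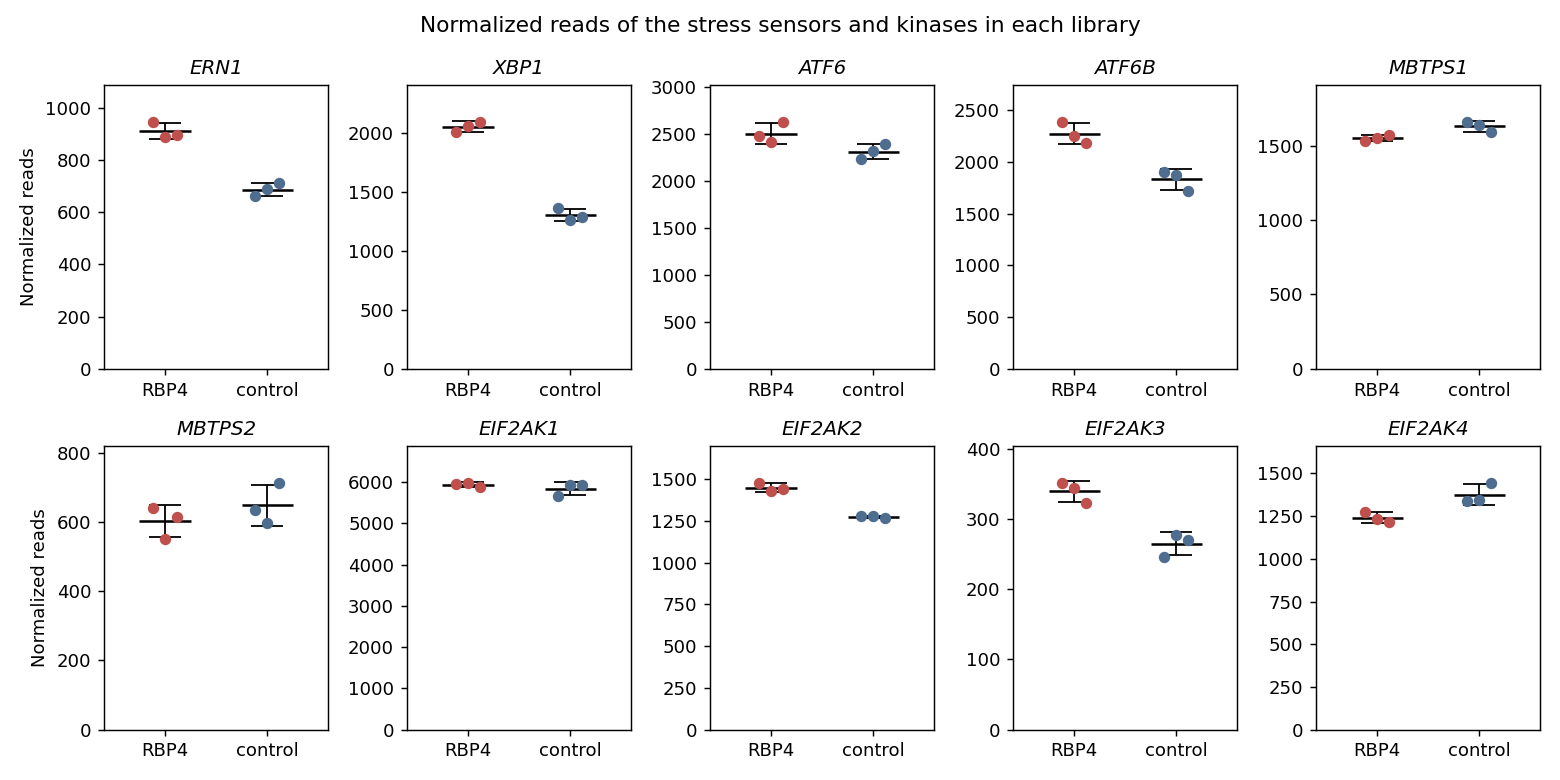
Normalized reads of each gene (vertical axes from 0) in the 3 RBP4 and the 3 control libraries; points are libraries, long bars are means and error bars are SD (n = 3 per group). The RBP4 points lie above all control points for XBP1, ERN1, EIF2AK3, ATF6B, EIF2AK2 and ATF6, and below them for EIF2AK4 and MBTPS1.

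Depth was similar in the 2 groups, with 15994483 to 16420517 recovered reads per RBP4 library and 15202000 to 16149118 per control library. The label of a monocytic line was checked against markers. Of 21 monocyte and macrophage markers analysed, 4 reached 10 CPM (normalized values scaled to the same library total) in all 6 libraries, and CD14, CD68 and CSF1R averaged below 0.2 CPM in each group. Of 26 erythroid markers, 20 reached 10 CPM in all 6 libraries, with a sum of 3387 to 3452 CPM in RBP4 and 3694 to 3725 CPM in control libraries. The transferrin receptor gene TFRC carries that difference, with 483 ± 15.0 CPM in RBP4 and 901 ± 15.4 CPM in control libraries (SD, n = 3 each). Without it, a choice made after seeing the values, the sum was higher in RBP4 libraries (2915 to 2952 CPM, against 2789 to 2832 CPM in control libraries), and 14 of the 26 markers had the higher mean in RBP4 and 12 the lower. Some erythroid markers were near 0 as well, such as HBB at 0.0616 CPM in RBP4 and 0.322 CPM in control libraries. Most of these values go against the label, and the groups are called by their labels only. None of the 6 markers of T and NK cells, 5 of B cells and 5 of fibroblasts that were analysed reached 10 CPM in all libraries, whereas all 3 epithelial ones did (389 to 411 CPM summed in RBP4 and 456 to 469 CPM in control libraries). The share of mitochondrially encoded reads also differed by group, at 7.58% to 7.69% in RBP4 and 5.90% to 6.10% in control libraries. The part of these differences in the results was not tested.

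ERN1 (ENSG00000178607, chromosome 17, 64039142 to 64130819 on GRCh38, minus strand) had 945, 889 and 896 normalized reads in RBP4 libraries 1, 2 and 3, against 660.3, 688 and 709.9 in control libraries 1, 2 and 3. Every RBP4 library lay above every control library. The log2 fold change was 0.41 (SE 0.054, 95% confidence interval 0.30 to 0.52, adjusted p = 2.3e-09 by limma), and 17.9% of the genes tested had a higher one. ERN2, the related sensor of secretory epithelia, was near the limit of detection, with 1.93, 3.78 and 6.68 normalized reads in RBP4 libraries and 1.03, 0 and 0 in control libraries. A count of 0 allows up to 3 reads in a library (counting error only), and ERN2 was below the filter for testing.

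XBP1 (ENSG00000100219, chromosome 22, 28794555 to 28800597, minus strand) showed the largest change of the 10 genes. It had 2005, 2063 and 2094 normalized reads in the RBP4 libraries and 1363, 1262 and 1287 in the control libraries, with no overlap. The log2 fold change was 0.66 (SE 0.041, interval 0.57 to 0.74, adjusted p = 1.9e-22 by limma), and 10.1% of the genes tested had a higher one. The intervals of XBP1 and ERN1 do not overlap, although the difference between both changes was not itself tested. Among all genes tested, the nearest to XBP1 in pattern over the 6 libraries were KIAA0513, SDF2L1, an ER co-chaperone component, and AARS, the cytosolic alanyl-tRNA synthetase. Nearness was the Euclidean distance between log2 profiles centred on the control mean (0.0484, 0.0792 and 0.0841). Their log2 fold changes were 0.66, 0.68 and 0.68 (adjusted p = 3.1e-14, 3.5e-31 and 3.3e-38 by limma), and the likeness says nothing of shared control.

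**Figure D2:**
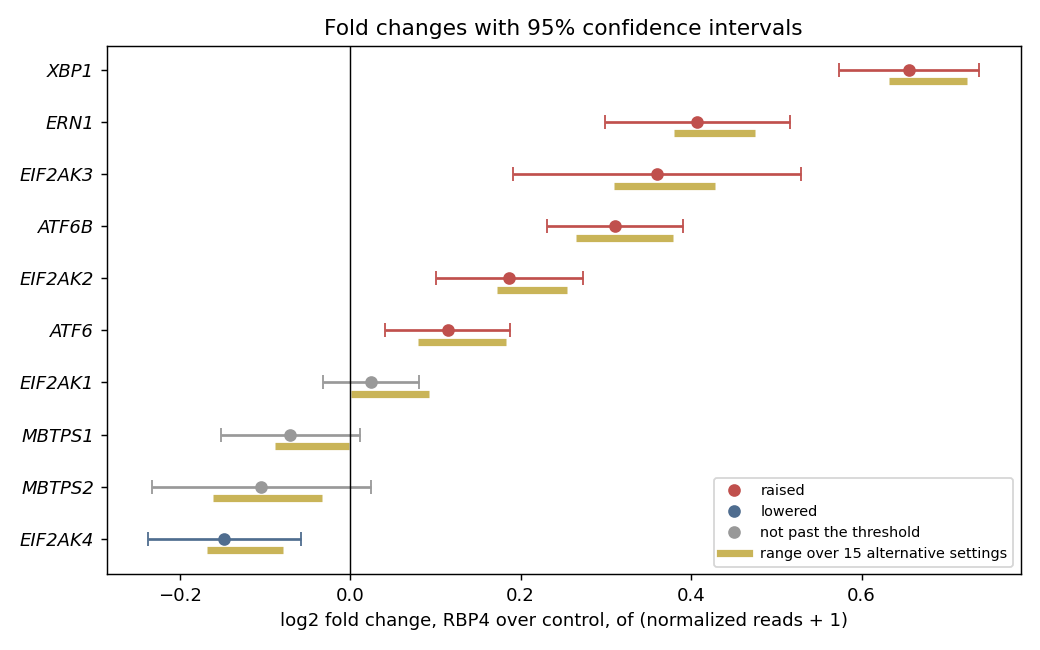
The log2 fold change (RBP4 over control) of each gene with its 95% confidence interval, and beneath it in yellow the range over the 15 alternative settings. XBP1 lies farthest right at 0.66, EIF2AK4 farthest left at -0.15, and the intervals of EIF2AK1, MBTPS1 and MBTPS2 include 0.

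The promoter window of XBP1 is shown because it alone among the windows given for these genes holds the ER stress response element (ERSE), the composite site bound by the factor NF-Y at CCAAT and by ATF6 or XBP1 at CCACG. RefSeq windows of 300 bases (250 before and 50 after a gene's start, GRCh38.p14) were given for 9 of the 10 genes, with a second one for XBP1. The ERSE was searched as CCAAT, 9 bases of any kind and CCACG, on both strands. It was found once, on the sense strand, from base 52 before the RefSeq start of XBP1. The window below lies at chr22:28800520-28800819, minus strand, with the ERSE in capitals.

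XBP1 promoter: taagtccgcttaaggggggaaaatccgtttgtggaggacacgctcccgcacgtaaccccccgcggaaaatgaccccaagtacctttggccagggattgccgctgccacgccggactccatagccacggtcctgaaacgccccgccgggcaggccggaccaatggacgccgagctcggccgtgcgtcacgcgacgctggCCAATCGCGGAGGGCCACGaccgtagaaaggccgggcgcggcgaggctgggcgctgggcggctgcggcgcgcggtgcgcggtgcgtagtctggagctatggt

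Of 35116 promoter windows, 27 (0.0769%) hold an ERSE. The windows of 5 of these genes (XBP1, ERN1, ATF6B, EIF2AK2 and EIF2AK3) hold 10 CCAAT boxes in all. The 19 bases that begin with a CCAAT box are given for some of them, read in the direction of the box with CCAAT and any CCACG at the end in capitals. They are both boxes of XBP1 (bases 52 and 93 before the start), the boxes of EIF2AK3 and ERN1 nearest to these in position (base 53, sense strand, and base 93, antisense strand), and that of EIF2AK2 closest to CCACG (base 87, sense strand).

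XBP1, base 52: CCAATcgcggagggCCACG

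XBP1, base 93: CCAATggacgccgagctcg

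EIF2AK2, base 87: CCAATttaccccaatcccg

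EIF2AK3, base 53: CCAATgagagagcaaacgc

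ERN1, base 93: CCAATctaggggcgtgttc

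The last 5 bases match CCACG at all 5 positions in the first stretch, at 3 in the second XBP1 and the EIF2AK2 stretch, and at 0 in those of EIF2AK3 and ERN1. Over the 9 boxes other than the first, matches ran from 0 to 3. The windows of the 9 genes held no ERSE-II (ATTGG, 1 base and CCACG), no TGACGTGG (the UPRE core), no TGACGTCA (the CRE) and no TTGCATCA (a C/EBP-ATF composite site) on either strand. Over all windows these were present in 0.0541%, 0.729%, 1.85% and 0.866%. Such matches are letters in a window, not measured binding, and the lack of a match says nothing about a factor. The windows with an ERSE belong to 25 genes, a set chosen by sequence after the data were seen. Of these, 15 were tested, 11 rose, XBP1 among them, 0 fell and 4 did not pass, where 24.5% of all genes tested rose. Their median log2 fold change was 0.55. Of the raised genes, HSPA5, HSP90B1, CALR, CANX and CRELD2 are counted again below as ATF6 targets and SERP1 as an XBP1 target. The raised ones include CRELD2 at 1.36 (adjusted p = 8.6e-27 by limma) and FICD, which AMPylates the chaperone HSPA5, at 1.17 (adjusted p = 6.5e-08), while PDIA6, a disulfide isomerase, stood at -0.026 (adjusted p = 0.48).

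ATF6 (ENSG00000118217, chromosome 1, 161766294 to 161964070, plus strand) had 2478, 2414 and 2631 normalized reads in RBP4 libraries and 2233, 2319 and 2395 in control libraries. The lowest RBP4 value lay just above the highest control value. The log2 fold change was 0.11 (SE 0.037, interval 0.04 to 0.19, adjusted p = 0.0072 by limma). This call was lost without RBP4 library 3 (0.079, adjusted p = 0.102) or control library 1 (0.089, adjusted p = 0.055). ATF6B (ENSG00000213676, chromosome 6, 32115264 to 32128253, minus strand), whose product is the weaker activator, had 2388, 2254 and 2183 normalized reads in RBP4 libraries and 1907, 1876 and 1719.7 in control libraries, without overlap. It rose by a log2 fold change of 0.31 (SE 0.040, interval 0.23 to 0.39, adjusted p = 1.3e-09 by limma). The log2 ratio of ATF6 to ATF6B within a library was 0.14 ± 0.11 in RBP4 and 0.34 ± 0.13 in control libraries (SD, n = 3 each). Its difference of -0.20 did not pass a two-sided exact permutation test (p = 0.2, where 0.1 is the smallest that 20 regroupings allow).

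The proteases that release ATF6 did not pass the test. MBTPS1 (ENSG00000140943, chromosome 16) had 1533, 1549 and 1573 normalized reads in RBP4 libraries against 1658, 1639 and 1589 in control libraries. The groups did not overlap, yet the log2 fold change of -0.07 had an interval of -0.15 to 0.01 (adjusted p = 0.15 by limma). MBTPS2 (ENSG00000012174, chromosome X) had 641, 551 and 615 normalized reads in RBP4 libraries and 633, 598 and 713 in control libraries, and the groups overlapped (log2 fold change -0.10, interval -0.23 to 0.02, adjusted p = 0.18). The values of RBP4 and control libraries were apart for 8 of the 10 genes, 6 with RBP4 higher and 2 with it lower, where 56.2% of the genes tested were apart. The log2 ratio of MBTPS1 to MBTPS2 within a library, 1.37 ± 0.12 in RBP4 and 1.33 ± 0.16 in control libraries, gave an exact permutation p of 0.8.

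The eIF2alpha kinases changed in different directions. EIF2AK3 (PERK, ENSG00000172071, chromosome 2, 88556741 to 88627576, minus strand) had 352, 344 and 323 normalized reads in RBP4 libraries against 246, 278 and 269.8 in control libraries. All RBP4 values lay above the control values, with a log2 fold change of 0.36 (SE 0.085, interval 0.19 to 0.53, adjusted p = 0.00026 by limma). EIF2AK2 (PKR, ENSG00000055332, chromosome 2, 37099210 to 37157065, minus strand) had 1478, 1428 and 1442 normalized reads in RBP4 libraries and 1277, 1278 and 1265 in control libraries. These groups were also apart, by a log2 fold change of 0.19 (SE 0.043, interval 0.10 to 0.27, adjusted p = 0.00021 by limma).

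EIF2AK4 (GCN2, ENSG00000128829, chromosome 15, 39934146 to 40035591, plus strand) had 1275, 1232 and 1216 normalized reads in RBP4 libraries and 1336, 1344 and 1446 in control libraries. It was the member that fell, by a log2 fold change of -0.15 (SE 0.045, interval -0.24 to -0.06, adjusted p = 0.0045 by limma), and 31.0% of the genes tested had a lower one. The call was lost with the libraries scaled to equal totals (-0.079, adjusted p = 0.138) and without control library 3 (-0.11, adjusted p = 0.055). The tested genes nearest to EIF2AK4 by the same distance were IBTK, CHMP5 and KAT7 (0.0325, 0.0362 and 0.0426), with log2 fold changes of -0.16, -0.16 and -0.15 (adjusted p = 0.00047, 0.017 and 0.0027 by limma). With equal totals the calls of CHMP5 and KAT7 were lost too, and that of CHMP5 also with DESeq2 and without control library 3. EIF2AK1 (HRI, ENSG00000086232, chromosome 7, 6022244 to 6059230, minus strand) had 5955, 5985 and 5879 normalized reads in RBP4 libraries and 5652, 5941 and 5932 in control libraries. Its groups overlapped, and the log2 fold change of 0.02 had an interval of -0.03 to 0.08 (adjusted p = 0.49 by limma). With equal totals it was 0.09 and past the threshold (adjusted p = 0.0043).

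Relative to the deposited gene length, EIF2AK1 was the most abundant of the 10 genes in each group. For all 10 genes this length equals the bases of all annotated exons merged, not the length of a transcript in these cells. The order between genes and the kinase shares below depend on it. It had 1070.2 ± 9.79 normalized reads per kilobase in RBP4 and 1052.5 ± 29.6 in control libraries (SD, n = 3 each). XBP1 followed in RBP4 libraries (678 ± 14.9 per kilobase), just above ATF6B (627 ± 28.6), whereas in control libraries XBP1 (431 ± 17.4) lay below ATF6B (505 ± 27.7). ATF6 came next with 318 ± 14.1 per kilobase in RBP4 and 294 ± 10.3 in control libraries, and MBTPS1 after it with 152 ± 1.96 in RBP4 and 159 ± 3.48 in control libraries. EIF2AK2 had 135 ± 2.41 in RBP4 and 118 ± 0.692 in control libraries. EIF2AK4 had 104 ± 2.54 in RBP4 and 115 ± 5.10 in control libraries, so that these 2 kinases were apart in RBP4 and overlapped in control libraries. ERN1, MBTPS2 and EIF2AK3 were the least abundant. ERN1 had 83.8 ± 2.82 per kilobase in RBP4 and 63.2 ± 2.29 in control libraries, MBTPS2 67.5 ± 5.16 in RBP4 and 72.6 ± 6.62 in control libraries, and EIF2AK3 62.5 ± 2.70 in RBP4 and 48.7 ± 3.01 in control libraries. MBTPS2 overlapped EIF2AK3 in RBP4 libraries, while the remaining neighbours in the order did not overlap.

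Among the 4 kinases, HRI therefore made up most of the summed per-length level. Its share was 77.7%, 78.3% and 78.2% in RBP4 libraries and 78.7%, 79.1% and 78.8% in control libraries. PERK held 4.56 ± 0.15% in RBP4 and 3.65 ± 0.14% in control libraries (SD, n = 3 each). PKR held 9.83 ± 0.17% in RBP4 and 8.88 ± 0.27% in control libraries, and GCN2 7.57 ± 0.13% in RBP4 and 8.62 ± 0.30% in control libraries. The 4 shares of a library add up to the whole, so they are not separate results, and larger shares of some kinases lower those of others. EIF2AK1 itself did not pass (log2 fold change 0.02, adjusted p = 0.49 by limma). The groups did not overlap for any of the 4 shares, which do not depend on the scaling between libraries. Each gave a two-sided exact permutation p of 0.1 (0.1 adjusted over the 4 kinases), the smallest the design allows, so none passes 0.05.

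**Figure D3:**
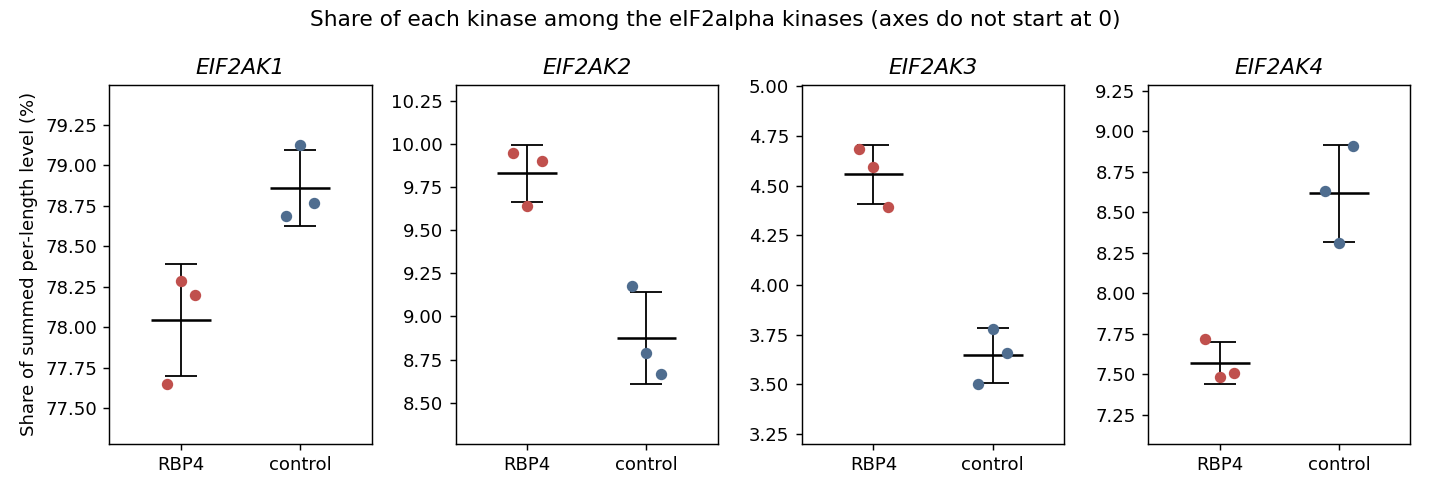
Share of each kinase in the summed per-length level of EIF2AK1, EIF2AK2, EIF2AK3 and EIF2AK4 (percent, axes not from 0), with points for libraries, long bars for means and error bars for SD (n = 3 per group). EIF2AK2 and EIF2AK3 hold larger and EIF2AK1 and EIF2AK4 smaller shares in RBP4 libraries.

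Some reads of these genes can belong to overlapping genes, since the library kit named in the labels does not mark strand. AIMP2, on the opposite strand, shares 532 exon bases (9.59%) with EIF2AK1, and the authors' mean for AIMP2 was 300.1 normalized reads in RBP4 and 294 in control libraries. YY2 shares 1093 exon bases (12.2%) with MBTPS2, with authors' means of 43.4 in RBP4 and 26.1 in control libraries. An antisense gene shares 781 exon bases (14.4%) with EIF2AK3, and the authors' means were below 1 normalized read in both groups. A second one shares 38 bases, with authors' means of 62.7 in RBP4 and 48.4 in control libraries. TNXB shares 71 exon bases (1.96%) with ATF6B, with authors' means of 112 in RBP4 and 72.3 in control libraries, and AL662884.2 shares 289 (7.96%) with ATF6B. With EIF2AK2, AC007899.1 shares 401 exon bases (3.73%), with authors' means of 0.944 in RBP4 and 0.345 in control libraries, and GPATCH11 shares 35. ERN1, XBP1, MBTPS1, ATF6 and EIF2AK4 share no exon base with another annotated gene.

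Genes known to be regulated by these sensors were counted next. All list counts from here on are to be read beside the 24.5% of all genes tested that were raised and the 26.1% lowered. The 16 genes listed as ATF6 targets all rose (15 to 16 raised over all settings), with a median log2 fold change of 0.85. The lists were drawn up with earlier results of these libraries known, so such counts are no independent evidence on the sensors. HERPUD1, which organizes ER-associated degradation, rose 3.38-fold, to 3148 ± 79.9 normalized reads in RBP4 libraries, against 931 ± 27.0 in control libraries (adjusted p = 2.1e-47 by limma, n = 3 each). The chaperones HSPA5, HYOU1 and CALR rose 3.03-fold, 2.12-fold and 1.76-fold. Among 25 listed XBP1 targets, 14 were raised (13 to 16 over all settings) and 4 lowered (2 with equal totals), and the median was 0.18. TRAM1, a translocon-associated protein, rose 1.91-fold and SEL1L and SYVN1, partners in ER-associated degradation, 1.99-fold and 1.77-fold. The lists share 6 tested genes, 24.0% of the XBP1 and 37.5% of the ATF6 list. Of the 19 XBP1 targets not also listed for ATF6, 8 rose and 4 fell, with a median of 0.06, and all 10 ATF6 targets not listed for XBP1 rose, with a median of 0.89. Whether the lists differ was not tested, and these counts depend on which list a gene was put in. PDIA6, whose window holds an ERSE, was listed for XBP1 and not for ATF6, and did not pass (log2 fold change -0.026, adjusted p = 0.48 by limma).

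All 15 tested genes of the ATF4 arm, downstream of every eIF2alpha kinase, rose (14 to 15 with 1 library left out), with a median log2 fold change of 1.16. ATF5 rose 5.43-fold, DDIT3, which encodes CHOP, 4.85-fold, TRIB3 3.60-fold and SESN2 2.92-fold. ATF4 itself rose 1.42-fold, to 7562 ± 104 normalized reads in RBP4 libraries, against 5344 ± 73.6 in control libraries (adjusted p = 1.1e-25 by limma, n = 3 each). These rises are known from earlier results on the same libraries and are no independent evidence on the sensors.

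**Figure D4:**
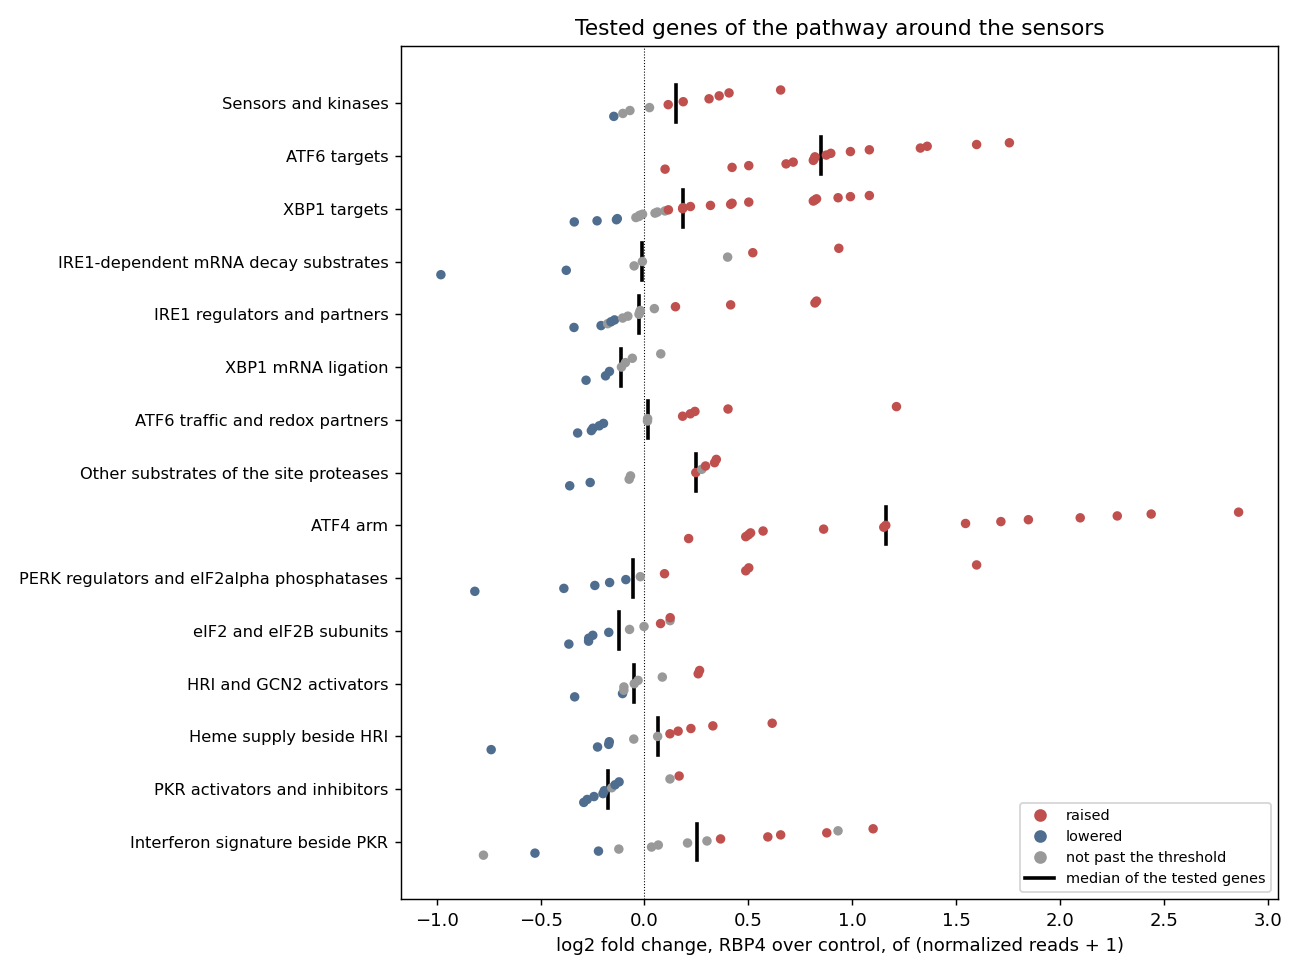
The log2 fold change (RBP4 over control) of every tested gene of each list, coloured by its call, with the median of the list as a black bar; vertical spread within a row only separates points. ATF6 targets and the ATF4 arm lie wholly right of 0, with medians of 0.85 and 1.16, against 0.15 for the sensors and kinases.

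Partners of IRE1 were mixed. Among 15 tested, 4 were raised and 4 lowered, where 24.5% of all genes tested were raised and 26.1% lowered. SYVN1, DNAJB9, an ER co-chaperone that restrains IRE1, and SEC61A1, the translocon pore, rose 1.77-fold, 1.78-fold and 1.33-fold. These genes are also listed as XBP1 targets, so their rises were already counted above. PTPN1, an ER phosphatase, fell 1.26-fold. In the machinery that rejoins XBP1 message, 3 of 7 genes fell and 0 rose (1 with equal totals). The ligase RTCB had 1425 ± 31.6 normalized reads in RBP4 and 1602 ± 34.0 in control libraries (adjusted p = 0.00051 by limma, n = 3 each), and its partners FAM98A and RTRAF fell 1.21-fold and 1.14-fold. Of 7 tested messages listed as cut by IRE1 in other settings, 2 rose and 2 fell. SPARC, a matrix protein, fell 1.97-fold and CD59, a complement inhibitor, 1.30-fold, while HGSNAT, a lysosomal acetyltransferase, rose 1.91-fold and PMP22, a membrane protein, 1.42-fold. BLOC1S1, the most widely used reporter of such decay, had 63.8, 85.0 and 70.6 normalized reads in RBP4 libraries and 79.7, 75.5 and 70.7 in control libraries (adjusted p = 0.83).

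Factors that handle ATF6 were divided. Of 12 tested, 5 rose and 5 fell. THBS1, a thrombospondin known to bind ATF6, rose 2.34-fold and NUCB1, a Golgi protein that inhibits ATF6 cleavage, 1.16-fold, while PDIA5, a disulfide isomerase that acts on ATF6, fell 1.25-fold and SEC24B, a COPII coat subunit, 1.19-fold. Other proteins that meet S1P and S2P also moved both ways, with 4 of 9 raised and 2 lowered. SREBF2, the factor that drives cholesterol synthesis, had 3236 ± 98.7 normalized reads in RBP4 and 4152 ± 30.3 in control libraries (adjusted p = 9.2e-16 by limma, n = 3 each), and SREBF1 fell 1.20-fold. CREB3L2, an ER-bound factor of the ATF6 kind, rose 1.26-fold, as did C12orf49, a cofactor of S1P, by 1.23-fold.

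Around PERK and eIF2, 4 of 10 regulators and phosphatase subunits rose and 5 fell. HSPA5, which holds PERK inactive, rose 3.03-fold and PPP1R15A, the inducible subunit that directs dephosphorylation of eIF2alpha, rose by a log2 fold change of 0.49. HSPA5 is also a listed ATF6 target and PPP1R15A a gene of the ATF4 arm, so both rises were already counted above. The cytosolic chaperones HSP90AA1 and HSP90AB1 fell 1.76-fold and 1.18-fold. A list of 10 genes held those of eIF2 and eIF2B and the separate factors EIF2A and EIF2D. Of these 10, 2 rose (1 without RBP4 library 2, RBP4 library 3 or control library 2) and 5 fell, with a median log2 fold change of -0.12. EIF2A and EIF2D, not subunits of either complex, did not pass (log2 fold change -0.0020 and -0.072, adjusted p = 0.97 and 0.101 by limma). EIF2S1, which encodes eIF2alpha itself, had 1890.2 ± 88.9 normalized reads in RBP4 and 2275 ± 61.9 in control libraries (adjusted p = 1.6e-08 by limma, n = 3 each). The subunits EIF2B5, EIF2B3 and EIF2B1 of its exchange factor fell 1.29-fold, 1.20-fold and 1.19-fold.

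For the remaining kinases, genes that act upstream were examined. Of 9 tested genes upstream of HRI and GCN2, 2 rose and 2 fell (1 with equal totals). OMA1, the mitochondrial protease upstream of HRI, and IMPACT, an inhibitor of GCN2, both rose 1.20-fold. GCN1, the ribosome-bound activator of GCN2, fell 1.26-fold, and RPLP0, a protein of the ribosomal stalk, 1.08-fold, a call lost with equal totals (adjusted p = 0.073). The OMA1 and IMPACT calls were lost without RBP4 library 3 (adjusted p = 0.053 and 0.052), and that of IMPACT also without control library 2 (0.059). DESeq2 called neither (adjusted p = 0.073 and 0.075). Of 11 tested genes of heme supply, 5 rose and 4 fell (2 with equal totals, with DESeq2, without RBP4 library 3 or without control library 2). ALAS1, the first enzyme of the pathway outside red cells, rose 1.53-fold and CPOX, a later enzyme, fell 1.67-fold. UROS, another enzyme of the pathway, rose (log2 fold change 0.33) and UROD fell (-0.23). The erythroid markers moved both ways, as given above, and their part in these changes was not tested. ALAS2, the erythroid counterpart of ALAS1, had 677 ± 13.7 normalized reads in RBP4 and 649 ± 52.9 in control libraries (adjusted p = 0.39 by limma, n = 3 each).

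Of 10 activators and inhibitors of PKR, 1 rose (2 with equal totals) and 7 fell (5 to 8 over all settings), with a median log2 fold change of -0.18. ILF2, a subunit of an RNA-binding complex, fell 1.22-fold, DHX9, an RNA helicase, 1.18-fold, and NPM1, a nucleolar protein, had a log2 fold change of -0.20 (adjusted p = 1e-11 by limma). The raised gene was TARBP2, a double-stranded RNA binding protein that inhibits PKR (log2 fold change 0.17, adjusted p = 0.03), and 0 were raised without RBP4 library 2, without control library 1, with DESeq2 or with no filter on low values. Interferon, which is known to induce EIF2AK2, was followed through 14 tested genes, with 5 raised (3 under a filter of 5 CPM) and 2 lowered (1 without control library 3 or with DESeq2). OAS3 rose 2.19-fold and IFIH1, a sensor of double-stranded RNA, 1.49-fold, and STAT2, a transcription factor of the interferon response, 1.29-fold. The 18 interferon genes analysed had a median control mean of 40.4 normalized reads, against 1273 for EIF2AK2.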

How the data were processed

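Per the labels' protocols, poly-T selected RNA was made into libraries with a NEBNext Ultra kit. Which aligner and counter were used is "not given in the sources used here". One deposited table holds, per the file headers, the authors' normalized signal for each gene and library (reads over the library's size factor), their log2 fold change, p-value and adjusted p-value, and gene length. All values (100%) were whole multiples of 1 step per library within 0.01 reads, so reads were recovered for the depth and for the alternative tests. Gene positions equal those of GENCODE release 29 (GRCh38) for all 10 genes.

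Genes that reached 10 normalized reads in 3 or more libraries were tested with limma-trend on log2(value + 1), with robust moderation and Benjamini-Hochberg adjustment over all genes tested (R 4.3.3, limma 3.58.1). Fold changes on this scale understate those of low genes. The script was tested on simulated data. Alternatives were edgeR 4.0.16 and DESeq2 1.42.0 on recovered reads, other pseudocounts, filters and scalings, a replicate block, and leaving out each library. Replicates of a group differed by more than sampling noise (chi-square per degree of freedom 1.91 to 2.43). The genes, the 14 lists and the tests were chosen with earlier results of these data known. The genes named are all 10 members, up to 4 genes of each list with the smallest p past the threshold, and the 3 nearest in pattern to the most raised and most lowered member; ATF4, BLOC1S1, ALAS2, ERN2, TARBP2 and the ERSE genes were added after seeing values. Some genes that this rule names are not reported here. No per-sample column was left unused (0).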

Additional observations from a re-analysis of the deposited data

How the results depend on the processing

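The 10 genes kept their direction under all 15 alternatives. XBP1, ERN1, EIF2AK3, ATF6B and EIF2AK2 stayed past the threshold in all of them, and MBTPS1 and MBTPS2 in none. With the libraries scaled to equal totals, EIF2AK1 passed (log2 fold change 0.093, adjusted p = 0.0043), EIF2AK4 did not (-0.079, adjusted p = 0.138), 0 members were lowered, and raised genes made up 61.7% of all calls (4821 raised, 2991 lowered), against 48.4% with the authors' size factors (3838 and 4096). This scaling moved the median of all genes by 0.068. Leaving out 1 library gave 5 to 6 members raised, 0 to 1 lowered and 6 to 7 called, with log2 fold changes of 0.079 to 0.14 for ATF6 and -0.17 to -0.11 for EIF2AK4. The cause was not tested. The difference in the MBTPS1 to MBTPS2 ratio was 0.034 and ranged from -0.054 to 0.095, changing sign without RBP4 library 2 (-0.027) or control library 3 (-0.054). DESeq2 called 5931 genes and edgeR 7820, against 7934 by limma. No shared deviation of same-numbered libraries was visible (correlations of 0.0037, -0.0079 and -0.017). The fit with a replicate block called 7829 genes and the same number of members (7). With 3 libraries per group, these values cannot exclude a pairing. Of 868 recomputed values of the 58 other genes named, 10 lost the threshold and 0 reversed, and 21 of 420 list counts moved by over 1.5 times.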
